A study of Mus musculus with 59 samples.

Results

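GABA receptor genes were followed in 59 single mouse cells. Gabra2, Gabra4, Gabrb1, Gabrb2 and Gabrd encode subunits of the GABA-A receptor, and Gabbr1 and Gabbr2 encode the subunits of the GABA-B receptor. They were taken by symbol, from a list made with earlier results of these data known. All 7 were found among the 20689 genes of the deposited table. The study concerns the conversion of astrocytes into neurons by chemicals inside the brain. All cells share the label chemical-induced neurons and an age label of 12 weeks, and their RNA was taken through a patch pipette. No genotype, strain, chemical, brain region or animal is named for any cell, and no untreated astrocytes or native neurons were analysed here. The cells therefore form 1 group and count as 1 sample, no test between groups was possible, and all values describe these cells alone.

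GABA-A receptors are chloride channels built from 5 subunits around a central pore, and they carry fast inhibition. Receptors in the synapse usually combine alpha and beta subunits with a gamma subunit, while the delta subunit takes the place of gamma in receptors outside the synapse, often together with the alpha 4 subunit. GABA-B receptors are G-protein-coupled and slow, and they need both partners, since Gabbr1 encodes the subunit that binds GABA and Gabbr2 the subunit that couples to the G protein and brings its partner to the cell surface.

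Levels are given as FPKM, fragments per kilobase of exon and 1000000 mapped fragments, which allows genes of unequal length to be compared. Detection means an FPKM of at least 1. The 95% interval beside a percentage of cells is exact (Clopper-Pearson) and reflects counting error alone. The cells had a median of 912996 estimated fragments (29043 to 2950402) and 3984 detected genes (475 to 10310). At least 50% of the cells detected 20 of 21 neuronal marker genes, but also 9 of 10 oligodendrocyte, 7 of 13 microglia and 8 of 20 astrocyte markers, 1 of 10 markers of oligodendrocyte precursors and 0 of 9 vascular markers. The summed neuronal marker level ran from 0 to 5988 FPKM over cells, the oligodendrocyte level from 14.6 to 29150 FPKM, the microglia level from 0 to 37510 FPKM and the astrocyte level from 38.7 to 16258 FPKM. The label of neuron therefore met neuronal markers and glial markers in the same set of cells, and the part of RNA from neighbouring cells was not tested.

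The 7 receptor genes were detected in a median of 22 cells (37.3%), where the median over all genes of the table was 7 cells (11.9%). Over all 18 GABA receptor genes of the table the median was 14.5 cells, so the choice of members raises the first value. Gabbr1 was the most widely detected, in 43 cells (72.9%, interval 59.7 to 83.6%). Gabra2 followed in 26 cells (44.1%, 31.2 to 57.6%), Gabbr2 in 23 (39.0%, 26.5 to 52.6%), and Gabra4 and Gabrb1 in 22 each (37.3%, 25.0 to 50.9%). Gabrd was detected in 13 cells (22.0%, 12.3 to 34.7%) and Gabrb2 in 8 (13.6%, 6.04 to 25.0%). The interval of Gabbr1 lay above that of Gabra2, while all later neighbours in this order had overlapping intervals. The 6 measured genes of other organs, used as a background, were detected in 1 to 5 cells each, with Myh6 (cardiac myosin) the highest.

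**Figure D1:**
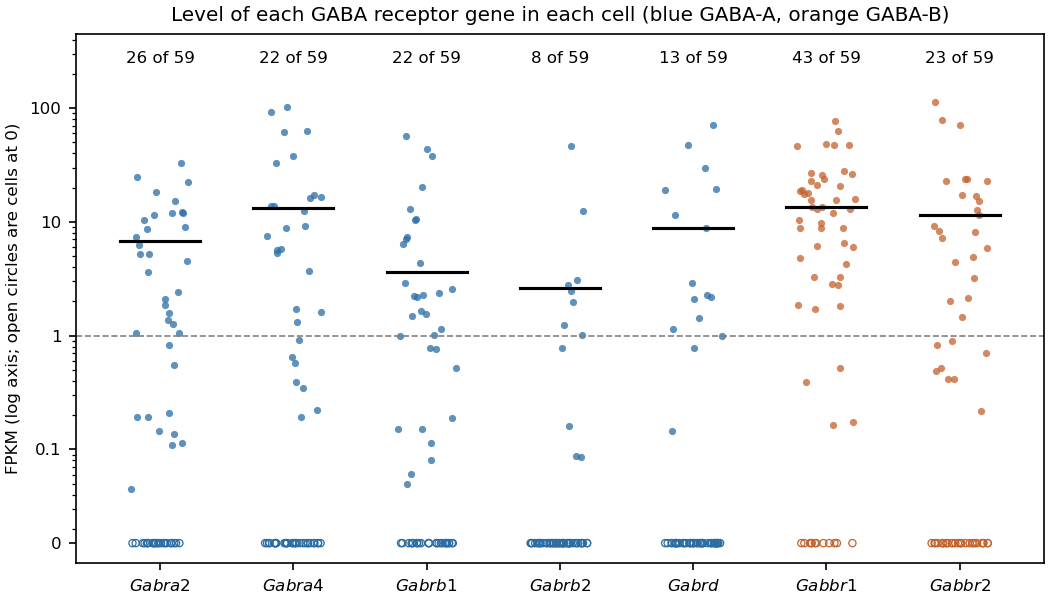
FPKM of the 7 genes on a log axis, 1 point per cell, GABA-A genes in blue and GABA-B genes in orange. Open circles at the bottom are cells at 0, the dashed line is the detection threshold of 1 FPKM and each black line is the median of the detected cells. Gabbr1 has the most points above the line (43 of 59) and Gabrb2 the fewest (8 of 59).

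Gabra2 encodes the alpha 2 subunit, which is common in the forebrain and sits at inhibitory synapses. It lies on chromosome 5 (70957597 to 71095849, minus strand, GRCm38). Its lowest, median and highest levels over the 59 cells were 0, 0.194 and 32.7 FPKM. In the 26 cells that detected it the median was 6.81 FPKM, with quartiles of 2.18 and 11.9 FPKM. The highest cells were cell 52 (32.7 FPKM, 603 fragments), cell 10 (24.6 FPKM) and cell 22 (22.5 FPKM). These 3 cells held 33.8% of its summed FPKM, so the gene was spread over many cells rather than carried by a few. Another 10 cells had between 0 and 1 FPKM, and 23 cells were at 0.

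Gabra4 encodes the alpha 4 subunit, found in the striatum, thalamus and dentate gyrus, often in receptors outside the synapse. It lies on chromosome 5 (71569749 to 71658308, minus strand). It was at 0 in 30 cells and reached 102.5 FPKM in cell 56, 91.7 FPKM in cell 44, 63.0 FPKM in cell 52 and 61.6 FPKM in cell 58. The median of its 22 detected cells was 13.1 FPKM, about as high as the 13.6 FPKM of Gabbr1 in the cells that detected that gene. Cell 56 had 749 fragments of Gabra4 but 1 fragment each of Gabra2 and Gabrb1, with 2081 genes detected. At the other end, 2 of the 22 detections of Gabra4 rested on 1 or 2 fragments.

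Gabrb1 encodes the beta 1 subunit, a partner that forms part of the GABA binding site. It lies head to head with Gabra4 on chromosome 5 (71658113 to 72149037, plus strand). It was at 0 in 26 cells, and its 22 detected cells had a median of 3.65 FPKM. The highest were cell 32 (56.9 FPKM, 381 fragments), cell 22 (43.7 FPKM, 552 fragments) and cell 47 (37.6 FPKM, 513 fragments). These 3 cells held 56.9% of the sum. Gabrb1 has the longest exons of the members (13838 bases), so at equal depth an FPKM of 1 rests on more fragments than in shorter genes. At least 10 fragments of it were found in 22 cells, which are not the same 22 that detected it. Cells 5 and 19 counted as detected on 2 fragments each. Another 11 cells had fragments but stayed under 1 FPKM, among them cell 24 with 24 fragments and cell 46 with 11.

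The starts of Gabra4 and Gabrb1 overlap, and whether the authors' counting used strand is not given in the sources used here. In GENCODE M21 the 2 genes share 196 bases (71658113 to 71658308), and with the RefSeq starts they share 388 bases. Reads from that stretch could be assigned to either gene or to neither. The RefSeq promoter windows, 250 bases before to 50 bases after the start on GRCm38.p6, are shown because this locus holds both genes. Gabrb1 has a second start 42011 bases downstream, outside Gabra4. Capitals mark the letters GGGCGG (GC box) or GCGCATGC (core of the NRF1 motif), searched on both strands.
Gabra4 promoter, chr5:71658259-71658558, minus strand: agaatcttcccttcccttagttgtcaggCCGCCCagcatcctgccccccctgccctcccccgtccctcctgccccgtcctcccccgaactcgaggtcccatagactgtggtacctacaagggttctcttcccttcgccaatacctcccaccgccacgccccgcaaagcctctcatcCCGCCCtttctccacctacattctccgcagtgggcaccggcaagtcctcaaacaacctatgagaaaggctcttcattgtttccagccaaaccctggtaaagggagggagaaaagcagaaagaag
Gabrb1 upstream promoter, chr5:71657671-71657970, plus strand: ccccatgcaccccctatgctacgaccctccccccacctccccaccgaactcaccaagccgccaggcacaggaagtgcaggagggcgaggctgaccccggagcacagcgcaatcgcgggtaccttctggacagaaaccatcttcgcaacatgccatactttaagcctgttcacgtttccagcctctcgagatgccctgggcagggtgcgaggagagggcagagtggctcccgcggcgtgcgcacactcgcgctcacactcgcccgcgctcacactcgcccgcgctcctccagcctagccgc
Gabrb1 downstream promoter, chr5:71699682-71699981, plus strand: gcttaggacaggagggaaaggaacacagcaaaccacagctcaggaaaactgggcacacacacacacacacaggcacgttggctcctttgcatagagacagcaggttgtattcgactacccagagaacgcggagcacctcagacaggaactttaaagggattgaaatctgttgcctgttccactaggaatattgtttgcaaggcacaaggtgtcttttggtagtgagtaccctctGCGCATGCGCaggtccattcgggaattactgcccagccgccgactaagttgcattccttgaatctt
The Gabra4 window held 2 GC boxes, and neither Gabrb1 window held one, against 35.7% of 32851 promoter windows of the same length. The downstream Gabrb1 window held GCGCATGC on both strands at overlapping positions, a motif found in 2.71% of all windows. TATAAA, TGACGTCA and GCGTGGGCG were in none of the 3 windows. GC content was 58.7% in the Gabra4 window, 66.0% in the upstream Gabrb1 window and 50.3% in the downstream one, where the median of all windows was 52.7%. The letters describe these windows and were not tied to the levels.

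Gabra4 and Gabrb1 were detected together in 15 cells, while 7 cells had Gabra4 without Gabrb1 and 7 had Gabrb1 without Gabra4. Each gene thus met its neighbour in 68.2% of its own cells. The Spearman correlation of their FPKM over the 59 cells was 0.414, and it was 0.287 after the number of genes detected per cell was taken out of both ranks. In cells with high levels they often parted. Cell 52 had 925 fragments of Gabra4 and 5 of Gabrb1, whereas cell 32 had 5 fragments of Gabra4 and 381 of Gabrb1. Gabra2, which lies 473.9 kb from Gabra4 in the same cluster, joined both genes in 13 cells.

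Gabrb2 encodes the beta 2 subunit, the most abundant beta subunit of the adult brain as a whole. It lies on chromosome 11 (42419757 to 42629028, plus strand). It was the least detected member, at 0 in 47 cells and with a median of 2.61 FPKM in its 8 detected cells. Cell 13 had 46.8 FPKM (879 fragments) and cell 58 had 12.5 FPKM (165 fragments), while the other 6 detected cells had at most 3.07 FPKM. Cell 13 alone held 64.2% of the summed Gabrb2 FPKM. Each of the 8 detected cells had at least 16 fragments of the gene. Another 4 cells (12, 27, 38 and 47) had 1 fragment each and stayed under 1 FPKM. All 8 detected cells were among the 39 cells with at least 500000 fragments.

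Gabrd encodes the delta subunit of receptors that respond to low GABA outside the synapse. It lies on chromosome 4 (155384980 to 155398112, minus strand). It was at 0 in 43 cells and had a median of 8.83 FPKM in its 13 detected cells. The highest were cell 58 (71.0 FPKM, 424 fragments), cell 7 (46.9 FPKM, 121 fragments) and cell 16 (29.5 FPKM, 238 fragments), and these 3 held 66.9% of the sum. Its exons are short (2875 bases), and 7 cells had at least 10 fragments of it. Of its 13 detections, 6 therefore rested on fewer than 10 fragments.

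Gabbr1 encodes the GABA-binding subunit of the GABA-B receptor and lies on chromosome 17 (37045966 to 37075067, plus strand). Its lowest, median and highest levels over all cells were 0, 8.85 and 77.3 FPKM. It was the only member with a median above the detection threshold. The 43 detected cells had a median of 13.6 FPKM with quartiles of 6.33 and 23.2 FPKM, and 40 cells had at least 10 fragments. The highest were cell 42 (77.3 FPKM), cell 11 (62.4 FPKM) and cell 1 (48.8 FPKM), which held 23.5% of the sum, the lowest such share of the 7 genes. Its promoter window is shown as that of the most widely detected member, with GC boxes in capitals.
Gabbr1 promoter, chr17:37045716-37046015, plus strand: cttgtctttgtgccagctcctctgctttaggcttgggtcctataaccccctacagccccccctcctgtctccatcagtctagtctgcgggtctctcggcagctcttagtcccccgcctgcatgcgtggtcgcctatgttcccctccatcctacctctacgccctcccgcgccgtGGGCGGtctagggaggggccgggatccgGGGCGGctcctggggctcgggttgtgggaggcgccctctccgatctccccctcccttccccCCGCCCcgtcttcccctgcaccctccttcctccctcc
This window held 3 GC boxes and a GC content of 67.3%. None of the other 4 motifs was found in it.

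Gabbr2 encodes the partner that couples to G proteins and lies on chromosome 4 (46662305 to 46991873, minus strand). It was at 0 in 28 cells and between 0 and 1 FPKM in 8. The 23 detected cells had a median of 11.6 FPKM, where Gabbr1 had 13.6 FPKM in its own 43. The highest were cell 44 (112.2 FPKM), cell 35 (78.5 FPKM, 805 fragments) and cell 2 (70.7 FPKM), which held 53.4% of the sum. These medians come from different sets of cells.

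The obligate GABA-B partners were detected together in 19 cells (32.2%, interval 20.6 to 45.6%). Gabbr1 without Gabbr2 was found in 24 cells, Gabbr2 without Gabbr1 in 4 and neither in 12. Of the 23 Gabbr2 cells 82.6% also had Gabbr1, whereas 44.2% of the 43 Gabbr1 cells had Gabbr2. Within the 19 cells with both, Gabbr1 was higher in 12 and Gabbr2 in 7, with a median Gabbr1 minus Gabbr2 difference of 0.69 in log2(FPKM + 1). Some absences of Gabbr2 were seen in deep cells. Cell 16 had 282 fragments of Gabbr1 and 0 of Gabbr2, where a count of 0 allows up to 0.183 FPKM (3 fragments), and cell 60 had 118 and 0, with a limit of 0.202 FPKM.

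**Figure D2:**
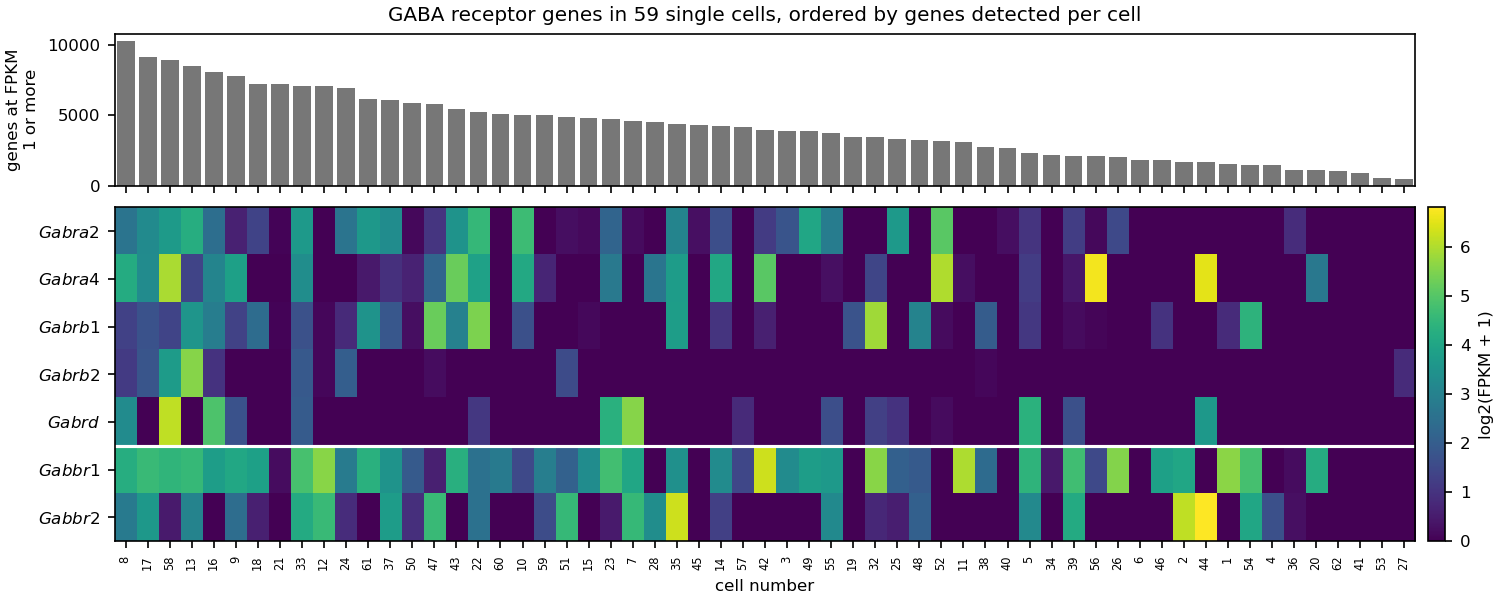
Level of the 7 genes as log2(FPKM + 1) in each of the 59 cells (columns, with cell numbers), below the number of genes detected in that cell. GABA-A genes are above the white line and GABA-B genes below it. The cells are ordered by genes detected, and coloured squares of the GABA-A rows thin out toward the right, while single high cells remain there (Gabbr1 in cell 1, Gabbr2 in cell 2, Gabra4 and Gabbr2 in cell 44).

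An alpha member (Gabra2 or Gabra4) was detected in 32 cells and a beta member (Gabrb1 or Gabrb2) in 24. Both kinds were found together in 19 cells (32.2%, interval 20.6 to 45.6%), alpha without beta in 13 and beta without alpha in 5. The alpha members shared 16 cells, so 72.7% of the Gabra4 cells also had Gabra2. Gabrb1 and Gabrb2 shared 6 of the 8 Gabrb2 cells. These counts leave out the GABA-A genes that are not members. With every alpha and beta gene of the table, an alpha and a beta gene were detected together in 35 cells (59.3%, interval 45.7 to 71.9%).

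Alpha, beta and delta members were found together in 8 cells (13.6%, interval 6.04 to 25.0%). Gabra4 was the alpha member, alone or with Gabra2, in each of these 8 cells. Some of them rest on few fragments: cell 5 had 1 fragment each of Gabra2 and Gabra4 and 2 of Gabrb1, cell 32 had 2 of Gabrd and cell 22 had 3 of Gabrd. With at least 10 fragments required of each gene 5 cells were left, and at an FPKM of 5 there were 2. Of the 13 Gabrd cells 10 had Gabra4 and 9 had Gabra2. Cell 7 had Gabrd alone among the GABA-A members, at 46.9 FPKM with 121 fragments. In cell 58 Gabrd (71.0 FPKM) and Gabra4 (61.6 FPKM) were both high, whereas cells 52 and 56 had high Gabra4 with 1 and 0 fragments of Gabrd. A gamma gene was also detected in 12 of the 13 Gabrd cells, the exception being cell 55.

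The 7 genes gave 29 combinations over the 59 cells, of which 15 occurred in a single cell. None of the 7 was detected in 10 cells. Gabbr1 alone was the next most frequent combination with 7 cells, followed by Gabra2 with Gabbr1 in 4 and Gabbr1 with Gabbr2 in 3. All 7 genes were detected in cells 8 and 33, with 10310 and 7126 genes detected. All 5 GABA-A members were detected in 4 cells (8, 16, 33 and 58), each with at least 7126 genes.

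**Figure D3:**
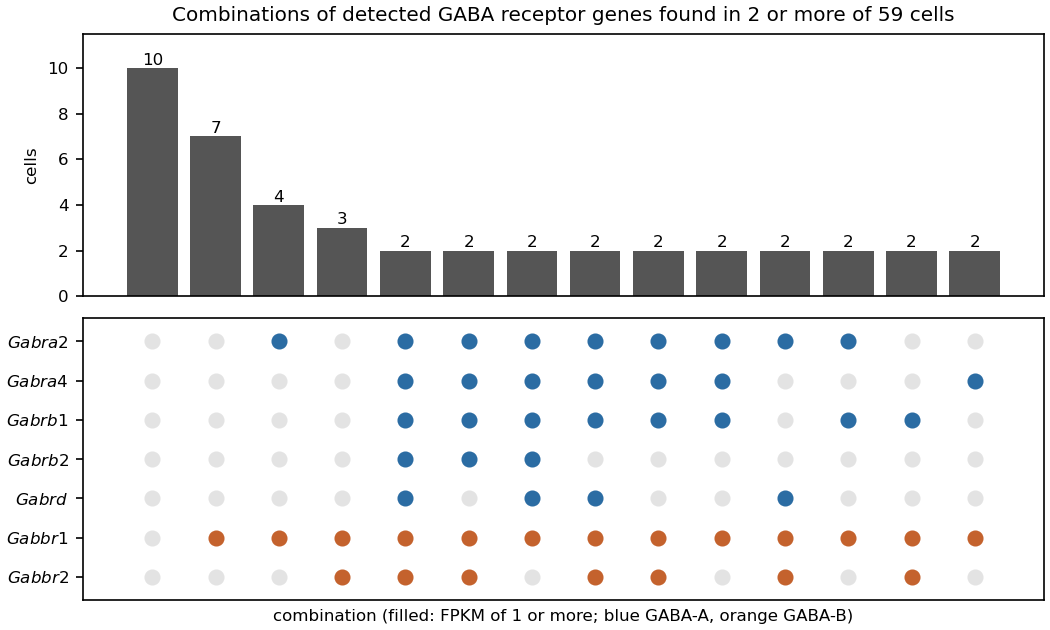
Number of cells (top) with each combination of detected genes (bottom, filled dots) that occurred in 2 or more cells. No member (10 cells), Gabbr1 alone (7), Gabra2 with Gabbr1 (4) and Gabbr1 with Gabbr2 (3) lead, and every other combination shown occurred in 2 cells.

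Detection of the members moved with the number of genes found per cell. In the 13 cells with under 2000 genes, Gabra2 and Gabrb2 were detected in 0 cells (which allows up to 24.7%), Gabrb1 and Gabrd in 1 each, Gabra4 in 2, Gabbr2 in 4 and Gabbr1 in 5. In the 26 cells with 2000 to under 5000 genes, Gabra2 was detected in 12, Gabra4 in 9, Gabrb1 in 7, Gabrb2 in 1, Gabrd in 6, Gabbr1 in 20 and Gabbr2 in 9. In the 20 cells with 5000 or more genes, Gabra2 and Gabrb1 were detected in 14 each, Gabra4 in 11, Gabrb2 in 7, Gabrd in 6, Gabbr1 in 18 and Gabbr2 in 10. Alpha with beta members was found in 0, 4 and 15 cells of these classes. Both GABA-B members were found in 2, 8 and 9 cells. The number of detected members went with the gene count as well, with a median of 1499 genes in the 10 cells with no member and 8314 in the 6 cells with 6 members. The part of cell size, RNA recovery and expression in these relations was not tested.

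**Figure D4:**
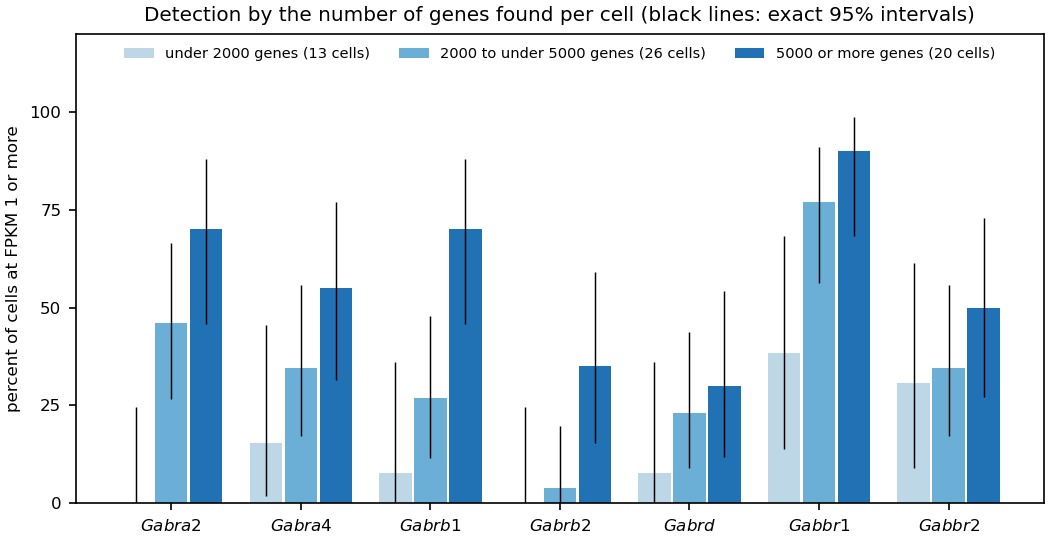
Percentage of cells with each gene at FPKM 1 or more, in cells with under 2000, 2000 to under 5000 and 5000 or more detected genes (13, 26 and 20 cells). Black lines are exact 95% intervals. Gabra2 goes from 0% to 46.2% and 70.0% over these classes and Gabbr2 from 30.8% to 34.6% and 50.0%.

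A high gene count did not always bring the receptor genes. Cell 21 had 7219 genes and 2934694 fragments but 1 fragment of Gabra2, 2 of Gabrb1 and 4 of Gabbr1, and none of the other 4 genes. Depth did not always bring them either. Cell 53 had 1318871 fragments but 519 detected genes and no fragment of any member, where a count of 0 allows up to 0.791 FPKM for Gabrd and 0.389 FPKM or less for the other genes.

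At least 1 GABA-A member was detected in 38 cells (64.4%, interval 50.9 to 76.4%) and at least 1 GABA-B member in 47 (79.7%, interval 67.2 to 89.0%). Both classes were found in 36 cells (61.0%, interval 47.4 to 73.5%), GABA-A members without GABA-B members in 2 and GABA-B members without GABA-A members in 11. Averaged as log2(FPKM + 1), the 5 GABA-A members stood at a median of 0.71 per cell and the 2 GABA-B members at 2.15. The GABA-A minus GABA-B difference within a cell had a median of -1.09 on the log2 scale (quartiles -2.05 and -0.04, SD 1.47 over 59 cells), below 0 in 44 cells, above 0 in 11 and 0 in 4. The classes hold different numbers of genes, and as sums they were closer. The summed FPKM was higher for the GABA-A members in 24 of the 55 cells with any member above 0 (43.6%, interval 30.3 to 57.7%) and higher for GABA-B in 31. Its median over cells was 5.95 FPKM for the 5 GABA-A members and 12.9 FPKM for the 2 GABA-B genes. In the 37 cells with at least 500000 fragments and any member above 0 the GABA-A sum was the higher in 20 (54.1%, interval 36.9 to 70.5%). Both of these intervals include an equal split, so neither class was clearly the more often higher.

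The balance of the sums moved with the genes counted. The 5 members are part of the 16 GABA-A genes of the table, whereas the GABA-B sum is complete. Over all 16 genes, a comparison added after the data were seen, the GABA-A sum was higher in 47 of 55 cells (85.5%, interval 73.3 to 93.5%) and the GABA-B sum in 8, with medians of 62.4 FPKM for GABA-A and 12.9 FPKM for GABA-B. The mean log2 difference per gene was -1.14 with all 16 genes. Any GABA-A gene was detected in 49 cells (83.1%, interval 71.0 to 91.6%), close to the 47 cells with a GABA-B gene.

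In the sums of the members, single cells lay far to either side. Cell 52 had 96.0 FPKM in the GABA-A sum from Gabra2 and Gabra4 and no fragment of Gabbr1 or Gabbr2, with limits of 0.160 and 0.212 FPKM. Cell 12 had 0.169 FPKM in the GABA-A sum and 71.3 FPKM in the GABA-B sum, from 657 fragments of Gabbr1 and 249 of Gabbr2, but its sum over all 16 GABA-A genes was 65.9 FPKM. Both cells were deep, with 2413985 fragments in cell 52 and 1784962 in cell 12. Where both sums were above 0 (46 cells), the GABA-A sum was over 10 times the GABA-B sum in 2 cells, and the GABA-B sum was over 10 times the GABA-A sum in 9. The Spearman correlation of the sums over the 59 cells was 0.416. Gabbr1 was the highest of the 7 genes in 28 cells, Gabbr2 in 7, Gabra2 in 6, Gabrb1 in 5, Gabra4 in 4, Gabrd in 3 and Gabrb2 in 2.

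**Figure D5:**
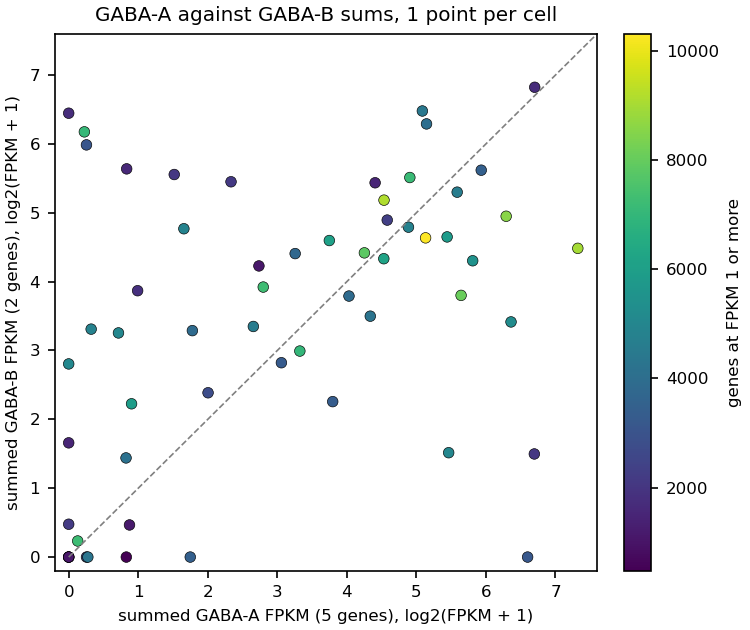
Summed FPKM of the 5 GABA-A genes (x axis) and the 2 GABA-B genes (y axis), both as log2(FPKM + 1), 1 point per cell, coloured by genes detected. Points under the dashed line of equal sums are the 24 cells with more FPKM in the 5 GABA-A genes, and the points near the axes include cell 52 (no fragment of either GABA-B gene) and cell 12 (0.169 FPKM in these 5 GABA-A genes).

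The share of the highest GABA-A member depends on how many members a cell detected. In the 38 cells with a detected GABA-A member the highest member held a median of 79.7% of the summed FPKM of the members, and over 90% in 15 cells. The other GABA-A genes of the table were left out of this share. A high share is largely set in advance in cells with just 1 detected GABA-A member. That member was Gabra2 in 4 cells, Gabrb1 in 4, Gabra4 in 3, and Gabrb2 and Gabrd in 1 each. The 15 cells over 90% were all of these cells and cells 32 and 42. Dominance of 1 gene where several were detected is therefore not shown by these values. Over all cells with any fragment of a GABA-A member, Gabra2 and Gabra4 were each the highest member in 14, Gabrb1 in 12, Gabrd in 7 and Gabrb2 in 4.

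Marker levels of neurons and glia were set beside each gene as correlations of FPKM with the mean marker level over the 59 cells, which share depth and the number of genes detected. Gabbr1 followed the neuronal markers most closely, with a Spearman correlation of 0.730, or 0.698 given the number of genes detected. Gabra4 reached 0.529 (0.419 given the genes detected), Gabrb1 0.522 (0.361) and Gabbr2 0.478 (0.407). Gabra2 stood at 0.418 (0.170), Gabrd at 0.335 (0.265) and Gabrb2 at 0.321 (0.0965). Against the oligodendrocyte markers Gabbr1 had -0.239 and Gabbr2 -0.203, and the other 5 genes lay between -0.0935 and 0.122. Against the astrocyte markers Gabra2 had 0.433, Gabra4 0.396, Gabbr2 0.368 and Gabrb1 0.358, and the other 3 genes lay between 0.107 and 0.207. Given the genes detected these 4 values were 0.181, 0.245, 0.270 and 0.134 in the same order. Gabra2 had 0.437 against the microglia markers, where the other 6 genes lay between -0.0680 and 0.122. Given the genes detected Gabra2 had 0.229 against microglia markers, Gabbr1 -0.266 and Gabrb1 -0.216. In the same way Gabbr1 had -0.339 against oligodendrocyte markers, Gabbr2 -0.286 and Gabrb1 -0.240. Gabra2 also had the highest correlation with the number of genes detected of all members, 0.565.

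Among 8042 genes detected in at least 12 cells, the genes most like each member were ranked by Spearman correlation over the 59 cells. Gabbr1 was most like Syp, which encodes the synaptic vesicle protein synaptophysin (0.756, both detected in 40 cells), then Prkce (protein kinase C epsilon, 0.696) and Nrsn2 (neurensin 2, 0.689). Gabra4 was most like Rnf112 (0.709), Ubqln2 (ubiquilin 2, 0.657) and Ccl27a (0.653). Gabra2 was most like Clip4 (0.669), Sgip1 (0.668) and Adprh (0.644). Gabrb1 was most like the kinase gene Tnik (0.656), Bri3bp (0.629) and Efcab2 (0.625). For Gabbr2 they were Peg13, an imprinted non-coding RNA (0.619), Podxl2 (0.616) and Sowaha (0.611). Gabrb2 had Actr6 (0.624), Mtmr14 (0.618) and Rpain (0.614), and Gabrd had Rnf150 (0.606), Fbxo34 (0.555) and Tmem87b (0.534). No member was among the 3 most like genes of another, but Gabrb2, detected in 8 cells, was under the limit of 12 cells and could not appear. Given the number of genes detected, 16 of these 21 genes stayed in place, and the entrants included D430019H16Rik for Gabra2 (0.549), Kcna2, a potassium channel gene, for Gabbr1 (0.647), Bcl11b, a transcription factor of striatal projection neurons, for Gabra2 (0.522) and Med31 for Gabrb2 (0.481). In the 46 cells with at least 2000 genes, 9 of the 21 stayed. The ranking is a description of sparse values, most of all for Gabrb2 and Gabrd, which are at 0 in 47 and 43 cells.

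Of 14 other GABA-A subunit genes listed, 11 were measured, with a median of 11 cells and a range of 1 to 40. One of the 11 was detected in at least 50% of the cells. The gamma 3 gene Gabrg3 was found in 13 cells and the gamma 1 gene Gabrg1, a neighbour of Gabra2 on chromosome 5, in 8. The theta gene Gabrq and the rho 1 gene Gabrr1 were lowest, with 1 cell each. Any gamma gene was found in 32 cells (54.2%, interval 40.8 to 67.3%), and an alpha, a beta and a gamma gene together in 27 (45.8%, interval 32.7 to 59.2%). Any GABA-A gene of the table was detected in 49 cells, and in 8 cells no GABA receptor gene at all was detected.

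Genes that place and move GABA-A receptors were detected in a median of 28 cells over 17 measured genes, 8 of them in at least 50% of the cells. The highest were Gabarapl1 in 52 cells, Gabarapl2 in 51 and Gabarap in 49, which encode adaptor proteins of receptor traffic and autophagy. The lowest were Slitrk3, a synaptic adhesion gene, in 12 and Shisa7, an auxiliary subunit gene, in 10. Gphn, which encodes the scaffold gephyrin of inhibitory synapses, was found in 25 cells, 21 of them among the 38 cells with a GABA-A member.

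Genes of GABA-B signalling had a median of 23 cells over 17 measured genes, 6 of them in at least 50% of the cells. G-protein genes led the list, with Gnb1 in 52 cells, Gnao1 in 51 and Gng3 in 44. The lowest were Kcnj6, which encodes the potassium channel subunit GIRK2, in 2 cells and Kctd12b in 1. Kcnj3, which encodes the channel subunit GIRK1, was found in 16 cells, and in 10 of the 19 cells with both GABA-B members.

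The chloride transporter genes Slc12a2 (NKCC1, which imports chloride) and Slc12a5 (KCC2, which exports it in mature neurons) were detected in 36 and 32 cells. Slc12a5 was present in 27 of the 38 cells with a GABA-A member. Each of the 38 cells with a GABA-A member and each of the 19 cells with both GABA-B members also had the GABA synthesis gene Gad1 or Gad2, which were found in 49 of the 59 cells. Gad1 was detected in 46 cells and Gad2 in 45, while Aldh5a1, a gene of GABA breakdown, was found in 12 and Slc6a11, a GABA transporter gene, in 9. Among other inhibitory receptors, the glycine receptor gene Glrb was detected in 39 cells, while Glra2 was found in 4, Glra1 in 2 and Glra3 and Glra4 in 1 each. The 14 ionotropic glutamate receptor genes had a median of 16 cells with a range of 7 to 40, set against 14.5 cells with a range of 1 to 43 for all 18 GABA receptor genes of the table and 22 cells for the 7 chosen ones. Gria2 led them with 40 cells, Gria1 had 32 and Grin2b 25, and Grik4 with 9 and Grin2d with 7 were lowest.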

How the data were processed

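Single-cell RNA-seq of 59 mouse cells was deposited by the authors as 1 table of FPKM, with 1 column per cell. The submitters' processing notes list STAR 2.5.3a, featureCounts 1.5.3 and the build GRCm38. Which annotation release was used, whether counting was stranded and how multi-mapped reads were treated is not given in the sources used here, so reads of overlapping genes cannot be told apart. ERCC spike-ins (51 features) were left out.

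Depth per cell was estimated from the spacing of low FPKM values times GENCODE M21 exon length, known for 19366 genes (93.6%). A median of 73.4% of values up to 20 fragments came out whole within 0.02 fragments, so the analysis stayed on FPKM, without a count model. All values of the 7 receptor genes up to 20 fragments came out whole, for Gabbr2 with a length of 5849 bases that its own steps imply. Fragment counts named in the text are these multiples.

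Log2 values are log2(FPKM + 1), a scale that understates differences of low genes. A count of 0 was given a limit of 3 fragments. Intervals and limits cover counting error only. There was 1 group, so no test was run. The members and lists were chosen with earlier results of these data known. The named genes are the members, the 3 genes most like each, by Spearman correlation and by partial rank correlation given the genes detected, and the 3 highest and 2 lowest genes of each list, with any gene needed for joint counts. Some genes taken by this rule are not reported here. Single cells were named after their values were seen. Promoter sequences are from RefSeq on GRCm38.p6 and matched 6 of the 7 genes, Gabrd being the exception. The depth estimate and the ranking were run on simulated whole counts made with the same exon lengths. That setting is simpler than the data, so it cannot show how well depth was recovered in these cells. Python 3.11.15, numpy 2.4.6, pandas 2.3.3 and scipy 1.17.1 were used. Alternatives covered the detection threshold, cell filters, rescaling of each cell, the pseudocount, the class summary and the filter on low genes.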

Additional observations from a re-analysis of the deposited data

How the results depend on the processing

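The alternatives gave 111 values for 15 results. Of these, 93 stayed within the interval, SD or 1.5-fold range of the main value and 18 moved. A change of sign was possible for the median GABA-A minus GABA-B difference alone, and it was not seen there. With any FPKM above 0 as detection, 86.4% of cells had a GABA-A member, 47.5% both GABA-B members, 45.8% alpha and beta members and 78.0% members of both classes. At an FPKM of 5 alpha and beta members were found in 11.9%, alpha, beta and delta members in 3.39% and both classes in 42.4%. These moves come from the threshold itself. As the mean over members in place of the sum, GABA-A was higher in 23.6% of cells, which follows from dividing by 5 genes against 2. In the 37 cells with at least 500000 fragments and any member, the GABA-A sum was higher in 54.1% (interval 36.9 to 70.5%). In all 55 cells it was higher in 43.6% (interval 30.3 to 57.7%). Both intervals include an equal split, so a turn between the classes was not shown. With all 16 GABA-A genes of the table, chosen after seeing the data, the GABA-A sum was higher in 85.5%, since 11 genes are added to one side. The median GABA-A minus GABA-B difference stayed below 0 in all 8 alternatives, from -2.05 with a pseudocount of 0.1 to -0.29 with the highest member of each class. Among the 56 values of single members 8 moved, 7 of them with the FPKM threshold and 1 with at least 10 fragments, where Gabrd fell to 11.9% of cells. No paired analysis between groups was possible because there is 1 group.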
